A study of Mus musculus with 10 samples.

Results

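The 9 genes described here are 4 globin genes of the adult mouse (Hba-a1, Hba-a2, Hbb-bs and Hbb-bt), the erythropoietin receptor gene Epor, and 4 genes of the red-cell membrane and of carbon dioxide transport (Slc4a1, Ank1, Rhag and Car1). They were picked by symbol out of 33393 genes. The transcripts of each gene, 32 of 95912 in all, were added up. RNA had been sequenced from bone marrow hematopoietic stem cells (HSCs) of 8-week-old C57BL/6 mice, sorted as lineage-negative, Sca-1-positive, c-Kit-positive cells without CD34 and Flt3 on their surface. Controls carried both floxed alleles of the Regnase-1 gene without Cre (Reg1flox/flox), and the other group carried the same alleles with Vav1-iCre (Reg1Δ/Δ). The Vav1 promoter drives the recombinase throughout the blood system, so the deletion is not limited to HSCs. The sample titles fall into 2 sets, called set 1 (3 control and 3 Reg1Δ/Δ libraries) and set 2 (2 and 2) here. The labels tie no library to a separate mouse, so p-values measure the spread between these libraries, which may be technical.

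Red cells carry oxygen on hemoglobin, a tetramer of alpha and beta globin chains. Erythropoietin, a hormone made in the kidney, binds its receptor on early erythroid progenitors and keeps them alive through JAK2 and STAT5. The membrane of the red cell holds band 3 (Slc4a1), an anion exchanger that swaps bicarbonate for chloride, and ankyrin (Ank1), which ties band 3 to the spectrin skeleton. Rhag forms a complex with the Rh proteins and carries ammonia, and carbonic anhydrase 1 (Car1) turns carbon dioxide into bicarbonate. Epor and Car1 come on early in the erythroid lineage, whereas band 3 and most globin accumulate late.

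Zc3h12a, the gene for Regnase-1, was higher in the libraries labelled Reg1Δ/Δ than in the controls (log2 fold change 0.83, SE 0.28, limma FDR = 0.0314). Its FDR was between 0.0505 and 0.265 without a filter, with a replicate block, without the set covariate and in each set alone, and between 0.0595 and 0.0768 without any 1 of 4 of the libraries. Without control replicate 1 of set 2, the log2 fold change of Zc3h12a was 0.53. After quantile normalization it was 1.73 (limma, FDR = 1.74e-04) and after median-of-ratios scaling 1.08 (limma, FDR = 0.00629). FDR is the p-value adjusted by the Benjamini-Hochberg method over all genes tested, and SE is the standard error. The values are per annotated transcript and do not show whether reads lie in the deleted exons, so they do not check the deletion, and directions below follow the labels. Values are TPM, a relative abundance per transcript length that adds up to the same total in every library. TPM keeps no read numbers, and the depth behind each value is unknown. The libraries fell apart by set, with correlations across genes of 0.855 or more within a set and 0.614 to 0.773 between sets. The share of protein-coding transcripts was 46.2% to 49.1% of TPM in set 1 and 73.5% to 81.1% in set 2. All comparisons were therefore made within sets, or with the set as a covariate in limma on log2(TPM + 1). Of 12874 genes tested, 15.0% were higher and 37.9% lower in libraries labelled Reg1Δ/Δ at FDR under 0.05. The log2 fold changes had a median of −0.25 over the tested genes. With quantile normalization it moved by 0.40, and the calls became 3861 higher and 2636 lower. With median-of-ratios scaling it moved by 0.30, and the calls became 3973 higher and 3425 lower.

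The alpha globin genes lie near each other on chromosome 11 of GRCm38, Hba-a1 at chr11:32283511-32284465 and Hba-a2 at chr11:32296489-32297298, both on the plus strand. The beta globin genes lie on the minus strand of chromosome 7, Hbb-bs at chr7:103826534-103828096 and Hbb-bt at chr7:103812524-103813996. Epor is at chr9:21958897-21963506 (minus strand), Rhag at chr17:40811126-40840754 (plus), Slc4a1 at chr11:102348824-102366203 (minus), Car1 at chr3:14766216-14808368 (minus) and Ank1 at chr8:22974844-23150497 (plus). RefSeq (GRCm38.p6) gave a promoter for 6 of the 9 genes. The 250 bases before the RefSeq start are shown for 3 of them, a globin gene that fell and a receptor and a membrane gene that rose. Hba-a2 is at chr11:32296242-32296491 (plus strand), Epor at chr9:21963577-21963826 (minus strand) and Rhag at chr17:40810899-40811148 (plus strand). Capitals mark 4 motifs. The GATA motif was searched as GATAA on both strands. The Klf1-type box was searched as CACCC on both strands. The TATA box was searched as TATAA on the printed strand alone. The remaining box was searched as CCAAT on both strands, and in Rhag it overlaps the Klf1-type box.
Hba-a2: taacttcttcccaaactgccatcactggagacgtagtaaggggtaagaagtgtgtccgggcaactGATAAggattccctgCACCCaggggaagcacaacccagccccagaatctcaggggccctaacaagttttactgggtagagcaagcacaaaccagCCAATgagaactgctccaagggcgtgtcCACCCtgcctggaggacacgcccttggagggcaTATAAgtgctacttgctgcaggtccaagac
Epor: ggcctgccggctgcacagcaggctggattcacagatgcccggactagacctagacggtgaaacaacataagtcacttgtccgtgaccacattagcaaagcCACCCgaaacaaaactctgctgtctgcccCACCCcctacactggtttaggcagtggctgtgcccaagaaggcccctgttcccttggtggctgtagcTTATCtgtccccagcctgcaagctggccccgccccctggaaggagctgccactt
Rhag: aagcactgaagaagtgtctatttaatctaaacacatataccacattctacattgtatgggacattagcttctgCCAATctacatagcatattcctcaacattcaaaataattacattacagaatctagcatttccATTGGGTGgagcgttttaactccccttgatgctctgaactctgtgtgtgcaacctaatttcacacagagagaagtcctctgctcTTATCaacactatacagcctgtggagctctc

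The GATA motif is the core site of the GATA factors, the Klf1-type box that of Klf1 and its relatives, and the other 2 are sites of the basal promoter. All 6 windows (the 4 globin genes, Epor and Rhag) held the GATA motif and the Klf1-type box. Of 32536 promoter windows of the same length, 22.5% held the first and 52.1% the second. The TATA box stood in the windows of the 4 globin genes and in neither of the other 2 (15.9% of all windows). The CCAAT box stood in the globin windows and in that of Rhag, and not in that of Epor (33.8% of all windows). In the Hba-a2 window, the GATA motif began 185 bases, the CCAAT box 91 bases and the TATA box 30 bases before the start. In the Hbb-bs window they began 209, 76 and 29 bases before it. The only GATA motif of Epor began 54 bases before its start and that of Rhag 31 bases before its start. The windows of Hba-a1 and Hba-a2 were identical over their 247 aligned bases, and those of Hbb-bs and Hbb-bt over 77.4% of 239. A match of letters is a description of the sequence and shows no binding.

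All 4 globin genes were lower in the libraries labelled Reg1Δ/Δ, with log2 fold changes from −3.19 to −2.14. Slc4a1, the late membrane gene, was lower as well (−2.68). Epor (1.44), Rhag (2.65), Car1 (2.24) and Ank1 (0.99) were higher. All 9 genes passed the filter on low values and the test, 5 of them lower and 4 higher, where 37.9% and 15.0% of all tested genes were. Within each set, the groups of every one of the 9 genes were apart, with no library of one genotype inside the range of the other. With so few libraries a group, such a gap can often arise without a difference. How many of all tested genes had it was not counted, so it is no trait of these genes. In sorted bulk cells, fewer cells of a type and less RNA per cell cannot be told apart.

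**Figure D1:**
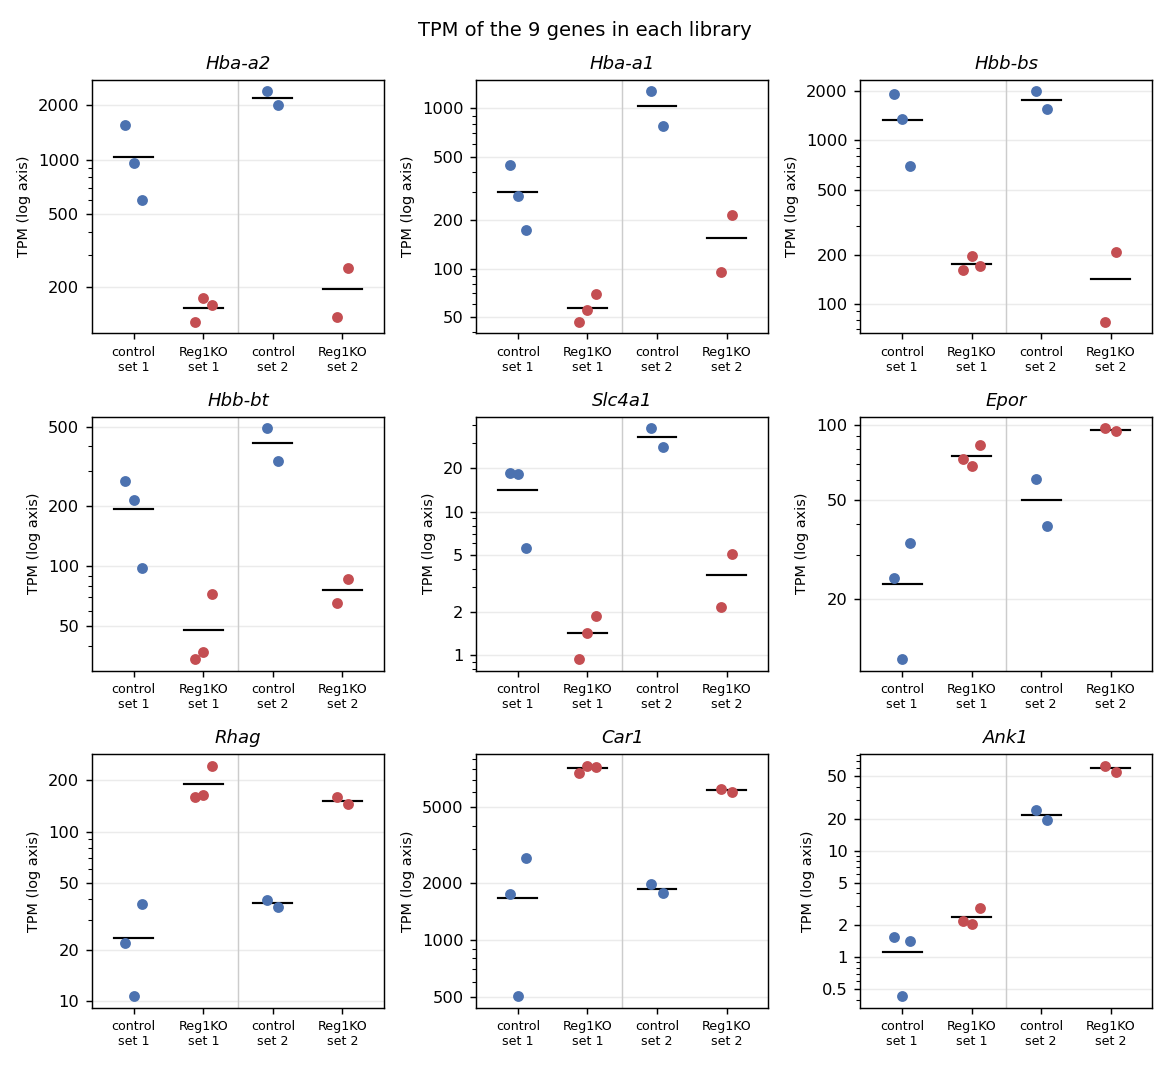
TPM (log axis) of each of the 9 genes in the 10 libraries, by genotype and set, with blue points for controls, red points for libraries labelled Reg1Δ/Δ and a bar at the group mean. The first 5 panels (the globins and Slc4a1) fall from control to Reg1Δ/Δ in both sets, and the last 4 rise, with Car1 reaching 8301 TPM.

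Hba-a2, which encodes alpha globin, had 1553, 956 and 598 TPM in the controls of set 1 and 2370 and 1981 TPM in those of set 2. The libraries labelled Reg1Δ/Δ had 129, 173 and 160 TPM in set 1 and 137 and 256 TPM in set 2. The highest Reg1Δ/Δ value of either set was thus below the lowest control of both sets. The group means were 1036 ± 482 TPM and 154 ± 22.9 TPM in set 1 (SD, n = 3 each), and 2176 ± 275 TPM and 196 ± 83.8 TPM in set 2 (SD, n = 2 each). This was a log2 fold change of −3.00 (SE 0.30, limma FDR = 2.78e-05).

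Hba-a1, the other alpha globin gene, stood at a lower level in every library. It had 445, 285 and 173 TPM in the controls of set 1 and 1280 and 779 TPM in those of set 2. With Reg1Δ/Δ labels, the values were 46.4, 55.1 and 69.1 TPM in set 1 and 94.6 and 215 TPM in set 2. The 2 genotypes were apart within each set, although the 215 TPM of set 2 exceeded the lowest control of set 1. This was a log2 fold change of −2.50 (SE 0.31, limma FDR = 1.26e-04).

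Hbb-bs, the more abundant of the adult beta globin genes, had the largest log2 fold change of the 9 genes in the fit over both sets, though not in set 1 alone or after median-of-ratios scaling, where that of Rhag was larger. Its controls had 1929, 1345 and 696 TPM in set 1 and 1997 and 1546 TPM in set 2. In the libraries labelled Reg1Δ/Δ it had 161, 197 and 170 TPM in set 1 and 77.5 and 206 TPM in set 2. Every control exceeded every library labelled Reg1Δ/Δ, across the sets too. The mean of the controls was 7.52-fold that of the libraries labelled Reg1Δ/Δ in set 1 and 12.5-fold in set 2 (log2 fold change −3.19, SE 0.35, limma FDR = 5.65e-05).

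Hbb-bt, the other adult beta globin gene, had 269, 215 and 97.7 TPM in the controls of set 1 and 493 and 337 TPM in those of set 2. In the libraries labelled Reg1Δ/Δ it had 34.3, 37.3 and 73.0 TPM in set 1 and 65.3 and 86.6 TPM in set 2. Its groups did not overlap across the sets either, but in set 1 the gap between the lowest control and the highest Reg1Δ/Δ value was the narrowest of the globins. This was a log2 fold change of −2.14 (SE 0.31, limma FDR = 3.54e-04).

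The alpha genes are near copies of each other, as are the beta genes, so the split of reads within each pair is uncertain and the sums are given beside the single genes. The coding transcripts of Hba-a1 and Hba-a2 matched at 537 of 538 aligned bases, and those of Hbb-bs and Hbb-bt at 582 of 625. The 4 globin genes together had 4197, 2801 and 1566 TPM in the controls of set 1 and 6140 and 4644 TPM in those of set 2. The libraries labelled Reg1Δ/Δ had 370, 463 and 472 TPM in set 1 and 374 and 763 TPM in set 2. Globin RNA thus made up 0.157% to 0.614% of TPM in control libraries and 0.0370% to 0.0763% in those labelled Reg1Δ/Δ. The mean sum of the controls was 6.56-fold that of the libraries labelled Reg1Δ/Δ in set 1 and 9.48-fold in set 2. These sums were not tested.

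Over all transcripts, the ratio of alpha to beta globin was lower in set 1 than in set 2. The ratio of the sums was 0.909, 0.796 and 0.972 in the controls of set 1 and 0.898, 0.976 and 0.941 in its libraries labelled Reg1Δ/Δ, with overlapping ranges. In set 2 it was 1.466 and 1.466 in its controls, and with Reg1Δ/Δ labels 1.62 and 1.61. Counted from protein-coding transcripts alone, the mean ratio was 1.56 for control and 1.72 for Reg1Δ/Δ labels in set 1, and 1.47 and 1.61 in set 2. In set 1, Hbb-bs stood above Hba-a2 in every library, and in set 2 Hba-a2 stood above Hbb-bs in every library. The main coding transcript of Hbb-bs alone was below Hba-a2 in set 1 too, with 667, 466 and 258 TPM in the controls. Between the group means, this order was smaller than the spread in the controls of set 1 (1323 ± 617 TPM against 1036 ± 482 TPM, SD, n = 3).

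The other globin genes were close to 0. Hbq1b, a theta globin gene between the alpha genes, had 0.192 to 0.833 TPM in 9 of the libraries and 5.89 TPM in replicate 1 of the set 2 controls. Hbb-y, an embryonic beta-like globin gene, was listed at 0 in 8 libraries and at 0.792 and 0.648 TPM in the other 2. Hbq1a was at 0.0627 TPM in 1 library and listed at 0 in the others. None of the 3 reached the level needed for testing. Other embryonic globin genes and Ahsp, the chaperone of alpha globin, were not analysed here.

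Slc4a1, which encodes band 3, moved with the globins. It had 18.5, 18.3 and 5.62 TPM in the controls of set 1 and 38.0 and 28.0 TPM in those of set 2. In the libraries labelled Reg1Δ/Δ it had 0.941, 1.42 and 1.89 TPM in set 1 and 2.16 and 5.04 TPM in set 2. Every control was above every library labelled Reg1Δ/Δ, although 5.62 TPM in set 1 lay close to 5.04 TPM in set 2. The controls had 9.97-fold the mean of the libraries labelled Reg1Δ/Δ in set 1 and 9.16-fold in set 2. This was a log2 fold change of −2.68 (SE 0.33, limma FDR = 1.10e-04), and a pseudocount of 1 understates it at these low levels.

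Epor, the receptor of the hormone, went the other way. Its controls had 24.3, 11.5 and 33.6 TPM in set 1 and 60.8 and 39.4 TPM in set 2. The libraries labelled Reg1Δ/Δ had 72.7, 68.7 and 83.4 TPM in set 1 and 96.9 and 94.8 TPM in set 2. All of them exceeded every control of either set. The mean rose 3.24-fold in set 1 and 1.91-fold in set 2 (log2 fold change 1.44, SE 0.28, limma FDR = 0.00197). Control replicate 2 of set 1 had the lowest Epor, and without it the log2 fold change was 1.17.

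Rhag, the Rh-associated glycoprotein, had 22.2, 10.7 and 37.5 TPM in the controls of set 1 and 39.7 and 35.9 TPM in those of set 2. In the libraries labelled Reg1Δ/Δ it had 161, 165 and 245 TPM in set 1 and 159 and 144 TPM in set 2. The lowest Reg1Δ/Δ value was far above the highest control in both sets. The mean rose 8.10-fold in set 1 and 4.02-fold in set 2 (log2 fold change 2.65, SE 0.33, limma FDR = 1.29e-04).

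Car1 was the most abundant of the 9 genes in the libraries labelled Reg1Δ/Δ. It had 1751, 505 and 2709 TPM in the controls of set 1 and 1961 and 1766 TPM in those of set 2. The libraries labelled Reg1Δ/Δ had 7568, 8301 and 8183 TPM in set 1 and 6243 and 6028 TPM in set 2, all above every control. Car1 alone thus held 0.603% to 0.830% of their TPM, against 0.0505% to 0.271% in the controls. This was a log2 fold change of 2.24 (SE 0.40, limma FDR = 0.00111).

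Ank1, the ankyrin of the red cell, had the smallest log2 fold change of the 9 genes in the fit over both sets, while in set 2 alone and after quantile normalization that of Epor was smaller. Its controls had 1.54, 0.430 and 1.41 TPM in set 1 and 23.9 and 19.6 TPM in set 2. The libraries labelled Reg1Δ/Δ had 2.19, 2.07 and 2.87 TPM in set 1 and 63.2 and 55.4 TPM in set 2. The genotypes were apart within each set, but every value of set 1 lay under every value of set 2. This was a log2 fold change of 0.99 (SE 0.20, limma FDR = 0.00267) with the set as a covariate, and its FDR was 0.640 without that covariate. Small genes, one of them antisense, are annotated inside Ank1, and the kits named for these libraries do not mark the strand, so reads of overlapping genes cannot be told apart.

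The balance of late to early genes was lower in the libraries labelled Reg1Δ/Δ. In the controls, the globin sum was 0.578 to 5.54 times the TPM of Car1 in set 1 and 3.13 and 2.63 times in set 2. In the libraries labelled Reg1Δ/Δ, it was 0.0489, 0.0557 and 0.0577 times Car1 in set 1 and 0.0600 and 0.127 times in set 2. The ratio of Slc4a1 to Rhag was 0.150 to 1.71 in the controls, under 1 in 4 of the 5, and 0.00586 to 0.0349 with Reg1Δ/Δ labels. The controls of set 1 differed in this balance among themselves: globins were highest in replicate 1 and lowest in replicate 3, while Epor, Rhag and Car1 were highest in replicate 3 and lowest in replicate 2. The ratios use the genes' own values and were not tested.

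Taken set by set, the directions were those of the fit over both sets. In set 1 alone, 5 of the 9 genes were lower and 3 higher at FDR under 0.05, where 38.3% and 12.0% of all tested genes were. Ank1 was the exception, with a log2 fold change of 0.70 (limma, FDR = 0.0517). In set 2 alone, with 2 libraries a group, 3 genes were lower and 3 higher, where 12.3% and 3.51% of all tested genes were. Those that did not pass there were Hbb-bs (−3.78, FDR = 0.0547), Hba-a1 (−2.80, FDR = 0.0778) and Epor (0.95, FDR = 0.116, all by limma). The difference between the sets was tested as an interaction in limma, which called 0.443% of all genes. It called 0 of the 9 genes, and 0 had an unadjusted p under 0.05. The widest confidence interval was that of Car1, whose log2 fold change in set 2 minus that in set 1 was −0.86 (95% confidence interval −2.69 to 0.97). For Rhag it was −1.12 (−2.49 to 0.25).

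**Figure D2:**
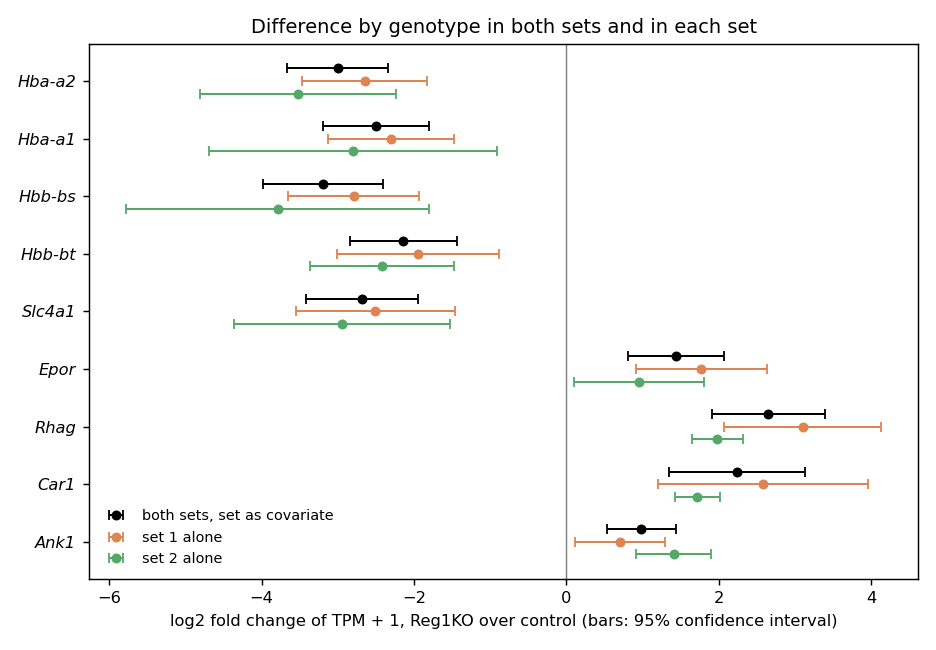
Log2 fold change of TPM + 1 (libraries labelled Reg1Δ/Δ over controls) of each gene, with 95% confidence intervals from limma, over both sets and in each set alone. Globins and Slc4a1 lie left of 0 and Epor, Rhag, Car1 and Ank1 right of 0 in all 3 fits, and the widest intervals are those of Hbb-bs and Hba-a1 in set 2 alone, with 2 libraries a group.

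Scaling did not turn any of the 9 genes. After quantile normalization, log2 fold changes ran from −3.23 for Hbb-bs to 2.73 for Rhag, with an FDR of 0.00254 or less by limma. After median-of-ratios scaling Hbb-bs, the lowest, was at −2.84, and the FDR of all 9 was 0.00100 or less by limma. With protein-coding transcripts alone, Hba-a1 had a log2 fold change of −1.46 (limma, FDR = 0.0431) in place of −2.50.

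The annotated transcripts that held a gene's TPM differed between the sets. In set 1, a transcript of Hba-a1 with a retained intron (494 bases) held 99.4% of the gene's mean TPM for control labels and 97.7% for Reg1Δ/Δ labels. In set 2, the coding transcript held 99.97% and 99.4%. The coding transcript itself had 0.644 to 3.18 TPM in the controls of set 1 and 779 and 1280 TPM in those of set 2. For Hbb-bs, the retained-intron transcript (344 bases) accounted for 64.2% in the controls of set 1 and 76.1% in its libraries labelled Reg1Δ/Δ, against 0.574% and 0.283% in set 2. For Slc4a1, 2 short processed transcripts accounted for 40.3% and 29.0% in the controls of set 1 and were listed at 0 in all libraries of set 2. The retained-intron transcript of Hba-a2 in a later annotation differs from that of Hba-a1 at 1 of 494 bases and was not analysed here.

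Both kinds of Hbb-bs transcript fell. The coding one had a log2 fold change of −3.58 (limma, FDR = 1.92e-04) and the retained-intron one −2.74 (limma, FDR = 2.08e-04). Of the 32 transcripts of the 9 genes, 15 were tested, of which 7 were higher and 5 lower. Of all 31937 transcripts tested, 6.40% were higher and 14.9% lower. The 3 not called by limma were both transcripts of Hba-a1 (−1.36, FDR = 0.107, and −1.23, FDR = 0.144) and 1 of Ank1 (0.75, FDR = 0.0580). Each Hba-a1 transcript was near 0 in one of the sets. All 3 transcripts of Car1 were higher, with log2 fold changes of 2.03, 2.19 and 2.28, and both of Epor were (1.48 and 1.09).

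**Figure D3:**
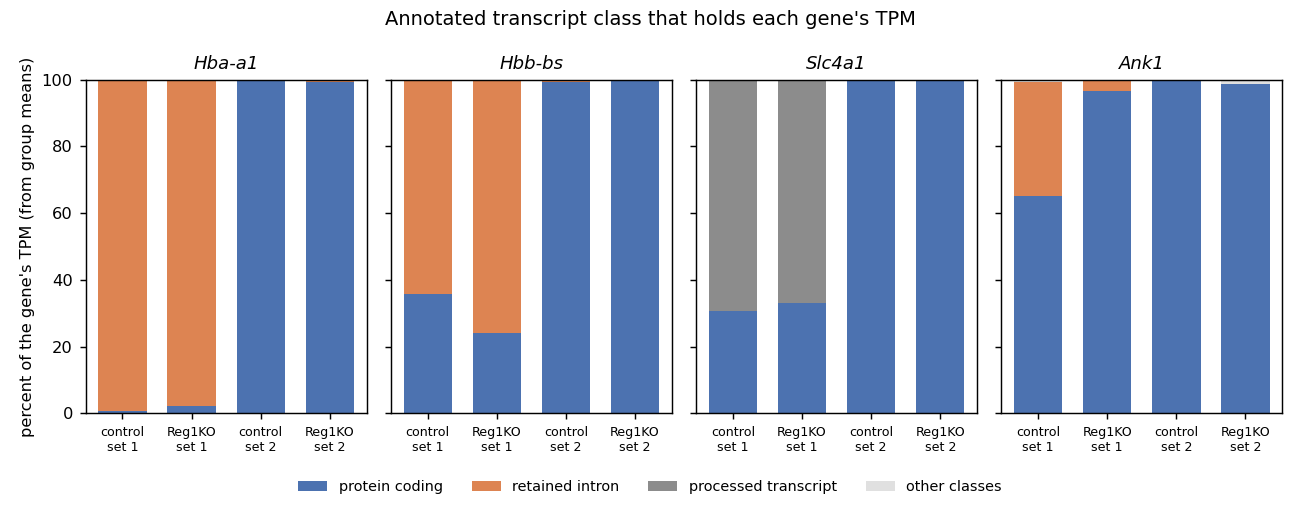
Share of each gene's TPM (percent, from group means) held by protein-coding, retained-intron, processed and other annotated transcripts for Hba-a1, Hbb-bs, Slc4a1 and Ank1, by genotype and set. In set 1, retained-intron or processed transcripts hold most of the TPM of the first 3 genes, with 99.4% of Hba-a1 in the controls, and in set 2 coding transcripts hold nearly all of it.

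Of 15 tested genes of Epo signalling, 2 were higher, 10 lower and 3 not called, beside 15.0% higher and 37.9% lower over all tested genes. Their median log2 fold change was −0.81, against −0.25 over all tested genes. The median was −0.26 after quantile normalization (0.14 over all tested genes) and −0.50 after median-of-ratios scaling (0.05). Set 2 alone called 7 of the 15 lower, where 12.3% of all tested genes were. Without the set covariate 6 were lower, where 3052 of all 12874 genes were, and after quantile normalization 6, where 2636 were. Socs2, a feedback inhibitor of cytokine receptors, fell (−2.42, FDR = 1.76e-05), as did Cish, another STAT5 target (−2.06, FDR = 0.00138), and the phosphatase Ptpn6 (−1.03, FDR = 3.59e-05, all by limma). Socs2 had 25.6 to 51.7 TPM in the controls of set 1 and 5.23 to 9.09 TPM in its libraries labelled Reg1Δ/Δ. Tfr2, a transferrin receptor that associates with the Epo receptor, was called higher (0.54, limma, FDR = 0.0133), but that call was lost in each set alone and without the set covariate. The other gene called higher was Fam132b, the older symbol of erythroferrone, a hormone that erythroblasts release. It reached 2.67 to 7.53 TPM in the libraries labelled Reg1Δ/Δ and at most 0.671 TPM in the controls, so it passed the filter of 1 TPM only through the group in which it was higher, and its call is no support for a direction. Stat5a had a log2 fold change of −0.10 (limma, FDR = 0.614), whose sign turned in set 2 alone and under both scalings.

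Genes of the membrane skeleton, to which ankyrin belongs, were called in both directions. Of 13 tested, 5 were higher, 5 lower and 3 not called, beside 15.0% higher and 37.9% lower over all tested genes. Their median log2 fold change was 0.12, which lay between −0.12 and 0.16 with single libraries left out. The median was 0.24 after quantile normalization (0.14 over all tested genes), 0.45 after median-of-ratios scaling (0.05) and −0.01 in set 2 alone (−0.12). Those higher included Add2 (beta adducin, 1.80, FDR = 3.52e-04), Mpp1 (1.61, FDR = 5.44e-05) and Sptb (beta spectrin, 1.41, FDR = 0.00113, all by limma). Add1 (alpha adducin) was among the 5 lower (−0.37, limma, FDR = 0.0372), and median-of-ratios scaling took its difference to −0.02 (FDR = 0.902). Its call was also lost without a filter, without the set covariate, in each set alone, with coding transcripts alone and without any 1 of 8 of the libraries. After quantile normalization 5 were higher and 3 lower, where 3861 and 2636 of all 12874 genes were. After median-of-ratios scaling 6 were higher and 3 lower, where 3973 and 3425 of all were. The count of lower genes was 3 or 4 without any 1 of 8 of the 10 libraries. In set 2 alone 5 genes were higher and 0 lower, where 3.51% and 12.3% of all tested genes were, and without the set covariate 2 were higher and 3 lower, where 716 and 3052 of all 12874 genes were.

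Of 18 tested surface proteins and transporters of the red cell, 9 were higher, 4 lower and 5 not called, beside 15.0% higher and 37.9% lower over all tested genes, with a median log2 fold change of 0.39. In set 2 alone, 4 were higher and 3 lower, where 3.51% and 12.3% of all tested genes were. Without the set covariate 6 were higher and 3 lower, where 716 and 3052 of all 12874 genes were. After quantile normalization 11 were higher and 3 lower, where 3861 and 2636 of all genes were. After median-of-ratios scaling 12 were higher and 4 lower, where 3973 and 3425 of all genes were. The water channel Aqp1 rose (1.11, limma, FDR = 0.00118), and so did Bsg (basigin, 0.66, limma, FDR = 0.00141). The largest fall was that of Slc2a1, the glucose transporter (−2.40, FDR = 3.48e-06), followed by Bcam (−2.29, FDR = 4.97e-05) and Ackr1 (−2.12, FDR = 0.0301, all by limma). Bcam had 3.37 TPM or more in the controls and 0 to 1.24 TPM in the libraries labelled Reg1Δ/Δ. It thus passed the filter through the group in which it was higher, and its call is no support for a direction. In set 1, Slc2a1 had 21.8 ± 0.443 TPM with control labels and 3.38 ± 1.42 TPM with Reg1Δ/Δ labels (SD, n = 3). Ackr1 lost its call in set 1 alone, where the genotypes overlapped (−1.23, limma, FDR = 0.302), against −3.46 in set 2 alone. It also lost it without a filter, without the set covariate, after quantile normalization, in the fit with replicate blocks and without any 1 of 7 of the libraries.

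Of the other carbonic anhydrases, 4 of 10 were tested. Car2, which acts beside Car1 in the red cell, rose from 1148 ± 369 TPM to 2278 ± 69.7 TPM in set 1 (SD, n = 3) and from 1229 ± 46.6 TPM to 2459 ± 185 TPM in set 2 (SD, n = 2), with a log2 fold change of 1.03 (limma, FDR = 6.70e-04). Car7 was called as well (0.51, limma, FDR = 0.0463) at 2 TPM or less, and its call was lost without a filter, with a pseudocount of 0.1, without the set covariate, in each set alone, with a trended and robust eBayes step and without any 1 of 8 of the libraries. Car3 (0.03) and Car13 (−0.44) were not called, and Car3 was higher after quantile normalization (limma, FDR = 0.00279).

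Among 12 tested erythroblast markers, 6 were higher, 3 lower and 3 not called, beside 15.0% higher and 37.9% lower over all tested genes, with a median log2 fold change of 0.40. In set 2 alone, 4 were higher and 3 lower with a median of 0.11, where 3.51% and 12.3% of all tested genes were. Without the set covariate 3 were higher and 2 lower, where 716 and 3052 of all 12874 genes were. Tfrc, which brings iron into erythroblasts, rose (2.07, FDR = 2.09e-05), as did Klf1, the activator of adult beta globin (1.80, FDR = 9.55e-04), and Tspo2 (1.69, FDR = 0.00171, all by limma). The 3 lower were Alas2, which starts heme synthesis in erythroid cells (−2.13, limma, FDR = 1.04e-04), Bpgm (−0.78) and Slc25a37, a mitochondrial iron importer (−0.72), named after their values were seen. Alas2 ranged from 7.80 to 20.5 TPM over the controls, and from 1.26 to 3.54 TPM with Reg1Δ/Δ labels. After quantile normalization, 7 markers were higher and 1 lower, where 3861 and 2636 of all 12874 genes were. Their median was then 1.08, against 0.14 over all tested genes. Of 12 erythroid transcription factors, 4 were higher, 3 lower and 5 not called, beside 15.0% higher and 37.9% lower over all tested genes. After median-of-ratios scaling 8 were higher and 3 lower, where 3973 and 3425 of all 12874 tested genes were. Those higher were Klf1, Gata1 (1.55, FDR = 6.38e-04), Gfi1b (0.96, FDR = 0.00316) and Tal1 (0.43, named after its values were seen), and those lower were Gata2 (−1.28), Nfe2 (−1.14, FDR = 1.70e-04) and Lmo2 (−1.07, FDR = 7.30e-04, all by limma).

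**Figure D4:**
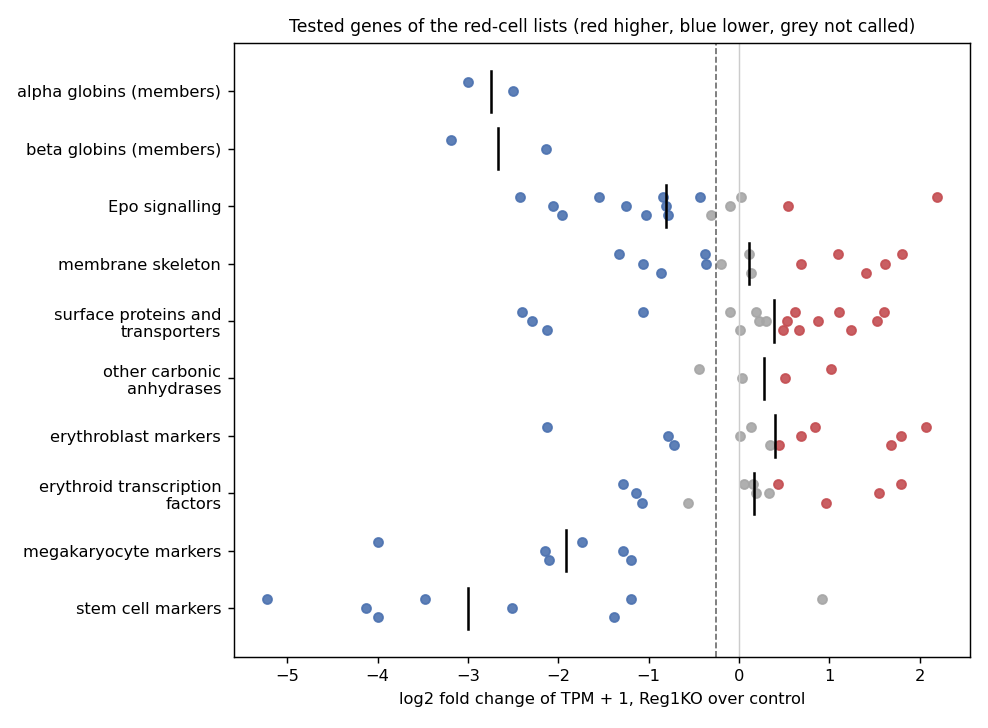
Log2 fold change of TPM + 1 (libraries labelled Reg1Δ/Δ over controls) of every tested gene of the globin and red-cell lists and of 2 marker lists, with red for higher, blue for lower and grey for not called (limma, FDR under 0.05), a bar at each list's median and a dashed line at the median of all tested genes (−0.25). Globins lie at −2.14 or below, and the membrane, erythroblast and transcription factor lists spread over both sides.

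Markers of other blood cells moved with the globins. The summed TPM of 7 neutrophil markers was 2802 to 5185 in the controls of set 1 and 271 to 871 in its libraries labelled Reg1Δ/Δ, and 11126 to 12882 against 687 to 701 in set 2. Of these markers, 5 of 7 were lower, where 37.9% of all tested genes were, among them S100a9 (−5.62, FDR = 8.80e-04) and S100a8 (−5.25, FDR = 6.35e-04, both by limma), while Mpo (−1.77, limma, FDR = 0.0683) and Elane (−1.45, limma, FDR = 0.111) were not called. In set 1 alone all 7 were lower, where 38.3% of all tested genes were, with Elane at −2.52 (limma, FDR = 0.0483). In set 2 alone 5 were lower, where 12.3% of all tested genes were, and Elane had a log2 fold change of 0.16. All 6 B cell markers were lower, where 37.9% of all tested genes were. Their sums were 130 to 913 TPM against 5.02 to 18.1 TPM in set 1, and 838 to 979 TPM against 2.34 to 6.24 TPM in set 2. Only 1 of the 6 was at 1 TPM or more in every library. The others could pass the filter through the controls, where they were higher, so this count is no support for a direction. Elane was named after its values were seen. The sort took lineage-negative cells, a gate meant to leave out mature neutrophils and B cells. The part of these cells in the globin difference was not tested.

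Markers of the megakaryocyte and of the stem cell fell too. All 6 tested megakaryocyte markers were lower, where 37.9% of all tested genes were, and 3 of the 6 in set 2 alone, where 12.3% were, with sums of all 8 of 369 to 611 TPM against 91.6 to 111 TPM in set 1 and 164 to 220 TPM against 26.1 to 33.0 TPM in set 2, and Pf4 fell by 2.10 on the log2 scale (limma, FDR = 2.31e-04). Of 8 stem cell markers, 7 were lower, beside 37.9% of all tested genes, with Kit at −1.39 (FDR = 1.08e-04), while Ly6a, which encodes the Sca-1 of the sort, was not called (0.92, FDR = 0.155, both by limma). Ly6a was called higher in set 2 alone (0.74, limma, FDR = 0.0366) and without replicate 2 of the set 1 libraries labelled Reg1Δ/Δ. In set 2 alone 5 of the 8 markers were lower and 1 higher, where 12.3% and 3.51% of all tested genes were. Of the 7, Fgd5, named after its values were seen, reached 1 TPM only in the controls and so passed the filter only through the group in which it was higher. Kit was present in every library, at 56.1 TPM or more. Hlf, Procr and Mecom, which define HSCs, had at least 33.9, 19.8 and 16.7 TPM in the controls and at most 2.72, 1.36 and 2.95 TPM in the libraries labelled Reg1Δ/Δ, and were named after their values were seen. Of 10 macrophage markers, 6 were tested. Slc40a1 was higher (1.09, limma, FDR = 0.00139) and the other 5 were called lower, beside 15.0% higher and 37.9% lower over all tested genes. However, 3 of the 5 (C1qb, Hmox1 and Spic, named after their values were seen) reached 1 TPM only in the controls and so passed the filter only through them. Among the 9412 genes at 1 TPM or more in every library, 1871 were higher and 3318 lower. There only 1 of the macrophage markers was tested, and it was higher. The sum of the 10 markers was 74.8 to 86.9 TPM against 123 to 180 TPM in set 1 and 105 to 119 TPM against 74.8 to 94.2 TPM in set 2. Slc40a1, the iron exporter, which erythroid cells also express, made up 61.7 ± 12.1 TPM and 146 ± 28.9 TPM of it in set 1 (SD, n = 3). The macrophage marker Cd5l, also named after its values were seen, was at 0.197 TPM or less in the libraries labelled Reg1Δ/Δ, at 0.265 TPM or less in the controls of set 1 and at 2.07 and 3.11 TPM in those of set 2. Of 5 T and NK cell markers, only Nkg7 was tested, and it was lower (−0.92, limma, FDR = 7.61e-04), with sums of 229 to 277 TPM against 91.9 to 145 TPM in set 1 and 72.8 to 84.9 TPM against 36.4 to 45.6 TPM in set 2.

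Against these, the summed erythroblast markers were higher, at 706 to 812 TPM against 167 to 294 TPM in the controls of set 1 and 898 to 1027 TPM against 419 to 503 TPM in set 2. Globins, Slc4a1 and Alas2 therefore fell in the same libraries in which Epor, Rhag, Car1, Klf1 and Tfrc rose.

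**Figure D5:**
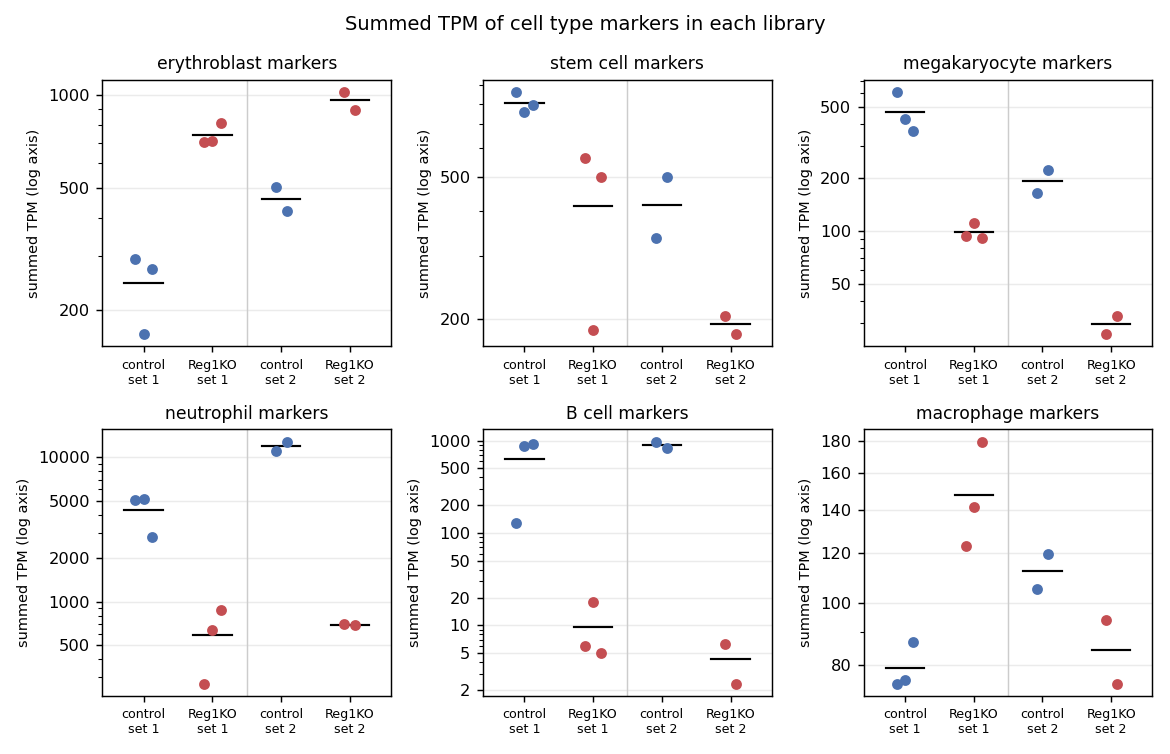
Summed TPM (log axis) of the markers of 6 cell types in each library, by genotype and set, with blue points for controls, red points for libraries labelled Reg1Δ/Δ and a bar at the group mean. Erythroblast markers are higher in the libraries labelled Reg1Δ/Δ, stem cell, megakaryocyte, neutrophil and B cell markers are lower, and macrophage markers are higher in set 1 and lower in set 2.

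Across the 10 libraries, centred within each set, the 4 globin genes and Slc4a1 followed each other closely, with Pearson correlations of 0.959 to 0.997. Epor, Rhag and Car1 did so too, at 0.976 to 0.984. These libraries share the difference between the genotypes, so any gene with a clear difference scores high, and no p is given. Of all tested protein-coding genes, those most like Hbb-bs were Hba-a2 (0.997), Hba-a1 (0.991) and Efna4 (0.988). Among those most like Epor were Blvrb (0.996) and Lmna (0.991). Those most like Slc4a1 were Map3k12 (0.992), Hba-a1 (0.988) and Hbb-bs (0.986), and those most like Car1 were Ces2g (0.996), Abcb4 (0.995) and Epdr1 (0.994).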

How the data were processed

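RNA-seq values of CD34-negative HSCs from 5 control and 5 Reg1Δ/Δ libraries were used. The authors aligned reads to the mouse genome (mm10), estimated TPM with Salmon 0.9.1 and deposited log2(TPM + 1) per transcript. TPM was recovered, summed per gene, and log2(TPM + 1) was fitted with limma 3.58.1 in R 4.3.3 (lmFit, eBayes), with the set as a covariate, for the 12874 genes at 1 TPM or more in 5 or more of the 10 libraries. The Benjamini-Hochberg adjustment ran over all genes tested, with an FDR threshold of 0.05. TPM gives neither depth nor counting error, so no count model was run. The fit was tested on simulated data.

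The members and lists were chosen with earlier results of these data known. Genes named from a list were the 3 of highest mean TPM and, in lists that are not markers, the 3 called genes of largest change, with exceptions marked. Some genes that this rule names are not reported here. Zc3h12a and the 3 genes most correlated with each of Hbb-bs, Epor, Slc4a1 and Car1 were added. Sets come from the style of the sample titles. The header of replicate 2 of the set 2 Reg1Δ/Δ libraries carried the name of replicate 1, but its values differed, and it was kept as replicate 2. Coordinates are those of GENCODE and promoters those of RefSeq. Alternatives were other filters, pseudocounts, scalings and covariates, each set alone, coding transcripts alone, a replicate block and each library left out.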

Additional observations from a re-analysis of the deposited data

How the results depend on the processing

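The 9 genes kept their direction in every fit run. With each of the 10 libraries left out in turn, 90 of 90 results of the 9 genes passed the threshold, and under the other alternatives 92 of 97 did. The 5 that did not were those of set 2 alone (Hbb-bs, Hba-a1 and Epor), set 1 alone (Ank1) and no set covariate (Ank1). Set 2 alone called 452 genes higher, 1581 lower and 3 of the 9 lower. Without the set covariate, 716 genes were higher and 3052 lower. Quantile normalization gave 3861 and 2636, and median-of-ratios scaling gave 3973 higher genes. Interactions numbered 57, 479 without a filter and 17 with coding transcripts alone, and after quantile normalization those of Ank1 (−0.0443) and Hba-a2 (0.0682) changed sign. Signs of differences that were not called turned for Stat5a (0.22 in set 2 alone, 0.0797 and 0.247 under quantile and median-of-ratios scaling, and from −0.183 to 0.00800 without single libraries), Mpo (0.00998), Elane (0.159) and Actb (−0.0128) in set 2 alone, Car13 (0.45 after quantile normalization) and Car3 (−0.31 in set 1 alone, −0.25 with coding transcripts alone, and from −0.0901 to 0.150 without single libraries). Mpo was called lower in set 1 alone, after quantile normalization, among genes at 1 TPM or more in every library and without replicate 3 of the set 1 libraries labelled Reg1Δ/Δ. Of the other called genes that the naming rule took from the lists, Ptpn6, Nkg7, Aqp1, Sptb, Gfi1b, Pf4 and Tfr2 lost the call without the set covariate, and Nkg7, Pf4, Tfr2, Kit, Bsg, Tspo2, Slc40a1 and Cish in set 2 alone, Tfr2 in set 1 alone too. The cause of these changes was not tested. Slc4a1 and Ank1 had a library under 1 TPM and were absent from the fit of genes at 1 TPM or more in every library.

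Same-numbered deviations from the group means correlated at 0.0334, 0.175 and 0.0683 in set 1 and −0.0544 in set 2. In set 2, with 2 libraries a group, both pairs give the same value by construction. Differently numbered libraries were not compared, so a pairing by replicate number was not tested. The fit with a replicate block called 1703 genes higher and 4545 lower, and of the 9 genes 4 higher and 5 lower. Fold changes rest on relative values of unknown depth, and those of low genes such as Slc4a1 and Ank1 also depend on the pseudocount. With 0.1 in place of 1, the log2 fold change over both sets moved from −2.68 to −3.16 for Slc4a1 and from 0.99 to 1.27 for Ank1.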
